A study of Caenorhabditis elegans with 2 samples.

Results

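The col- genes of Caenorhabditis elegans encode most of the collagens of the cuticle, the layered exoskeleton that the epidermis secretes and renews at each moult. Collagens are built from repeats of glycine followed by a pair of other residues. Their chains are hydroxylated by prolyl 4-hydroxylase, and cuticle collagens are also cut by proteases and cross-linked. Different col- genes are used at different stages, and the family shares much of its coding sequence.

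Members were the genes of the WBcel235 gene table whose symbol starts with col-, translated to sequence names and matched to the exon names in the deposited annotation. The rule gave 159 genes, of which 156 are listed as protein-coding and 3 as pseudogenes, against 19983 protein-coding genes in that table. The cuticle collagens named for body shape, such as dpy-7 or rol-6, carry other symbols and were counted apart.

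Small RNAs came from whole worms of the strain labelled fem-1, named for a gene needed for sperm formation and shared by both groups of the series. The labels give neither the animals' age nor their culture. The series has 2 libraries, 1 per group. The monophosphate library, a standard preparation that takes RNAs ending in a 5′ monophosphate, is described here, and the polyphosphatase library was not analysed here. With 1 library there was no replicate, no test and no p-value, and each interval below is an exact 95% interval (Poisson for counts, Clopper-Pearson for shares) that covers counting error only. The deposited list held 1417144 reads in 51569 clusters, where a cluster is a run of overlapping reads on 1 strand. Reads per gene are counts and were not divided by length, so the order of genes is an order of reads and not of transcript levels. In whole animals, fewer cells of a type and less RNA per cell cannot be told apart.

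Transcripts of several tissues were present. The yolk protein genes of the intestine took 10066 sense reads, led by vit-6 with 4468, vit-2 with 2451 and vit-5 with 1721. The muscle list took 542 sense reads, led by the myosin gene unc-54 with 137, the paramyosin gene unc-15 with 91 and the actin gene act-4 with 68. Of 35 msp- genes, near-identical copies of the major sperm protein gene of which 4 are listed as pseudogenes, 0 had a read in either direction. Of the epidermal genes looked up, sqt-3 had 21 sense reads and col-19 had 20, while dpy-7 and rol-6 had 0.

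Most reads on the col- genes lay on the coding strand. Sense reads numbered 676 (626 to 729) in 218 clusters, or 0.956% (0.885 to 1.03) of the 70747 reads in clusters sense to exons, while the 156 coding members are 0.781% of protein-coding genes. Antisense reads numbered 30 (20.2 to 42.8) in 21 clusters. Of the 156 protein-coding members, 45 had at least 1 sense read, or 28.8% (21.9 to 36.6), against 35.5% of all protein-coding genes. None of the 3 pseudogenes had a read. A further 7 genes had antisense reads alone, so that 107 of the 159 members had no exon read. An exon read in either direction was found on 52 of the 156 coding members, against 7975 of all 19983 protein-coding genes. A count of 0 allows up to 3 reads, a one-sided limit given for zero counts (the two-sided Poisson interval ends at 3.69).

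Sense reads were unevenly divided among the members. The 15 genes with at least 10 reads made up 9.62% (5.48 to 15.4) of the coding members, against 7.11% of all protein-coding genes. They held 611 of the 676 reads, or 90.4%. The 10 leading genes alone held 79.7% (76.5 to 82.7). The other 30 genes with sense reads shared 65 reads, and 17 of them had a single read. Sense reads on other protein-coding genes were unevenly divided too. The 1405 of those genes with at least 10 sense reads held 49831 reads, and the 5646 with 1 to 9 held 17418.

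**Figure D1:**
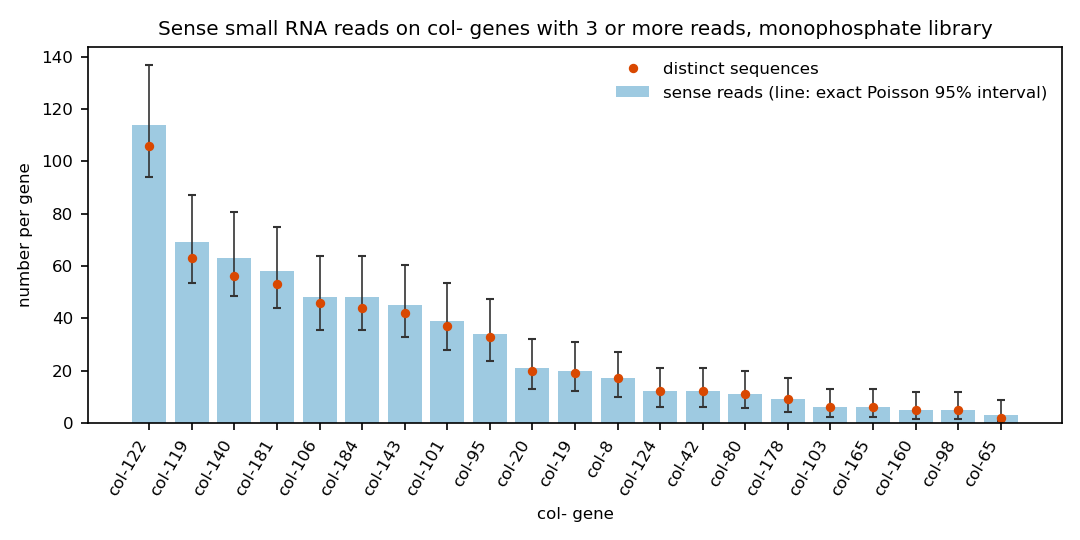
Sense reads (bars, with exact Poisson 95% intervals as lines) and distinct sequences (points) for the col- genes with at least 3 sense reads in the monophosphate library. Reads run from 114 on col-122 to 3 on col-65, and the number of distinct sequences stays close to the number of reads in every gene shown.

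The gene with the most sense reads was col-122 (T05A1.2) with 114 (94.0 to 137) in 13 clusters, on the plus strand of chromosome IV from 9563364 to 9564375 in the positions of the deposited list, for which no source used here names the genome build. Its largest cluster, 218 nt wide in exon 2 (9563946 to 9564163), held 43 reads of 39 distinct sequences, and the next, at 9564224 to 9564309, held 21. col-119 (C53B4.5) followed with 69 (53.7 to 87.3), on the minus strand of chromosome IV from 8978820 to 8979767. The intervals of col-122 and col-119 did not overlap. All 14 clusters of col-119 lay in exon 1, and the largest held 18 reads.

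Genes farther down this order overlapped in their intervals with their neighbours. col-140 (F26F12.1, chromosome V 5835870 to 5836798, minus strand) had 63 reads (48.4 to 80.6) in 17 clusters, the most clusters of any member. col-181 (W03G11.1, X 12105061 to 12105831, plus strand) had 58 (44.0 to 75.0). col-106 (Y77E11A.15, IV 1459902 to 1460784, minus strand) and col-184 (F15A2.1, X 13469451 to 13470243, plus strand) had 48 each (35.4 to 63.6). The largest cluster of each of these held 17, 13, 8 and 12 reads in that order, so no single position carried most of a gene's reads.

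The next group lay between 34 and 45 reads. col-143 (T15B7.3, V 6835655 to 6836600, plus strand) had 45 reads (32.8 to 60.2), of which 16 fell in a cluster of 102 nt in exon 1. col-101 (K02D7.3, IV 325579 to 326482, minus strand) had 39 (27.7 to 53.3) in 14 clusters of at most 7 reads. col-95 (Y41C4A.16, III 11703888 to 11704880, plus strand) had 34 (23.5 to 47.5) in 11 clusters of at most 6 reads.

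Of the remaining 6 genes of the leading 15, col-20 (F11G11.11) had 21 reads, col-19 (ZK1193.1) 20 and col-8 (F11H8.3) 17. col-42 (Y69H2.14) and col-124 (C24F3.6) had 12 each and col-80 (C09G5.5) had 11. The intervals of these 6 genes overlapped each other.

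**Figure D2:**
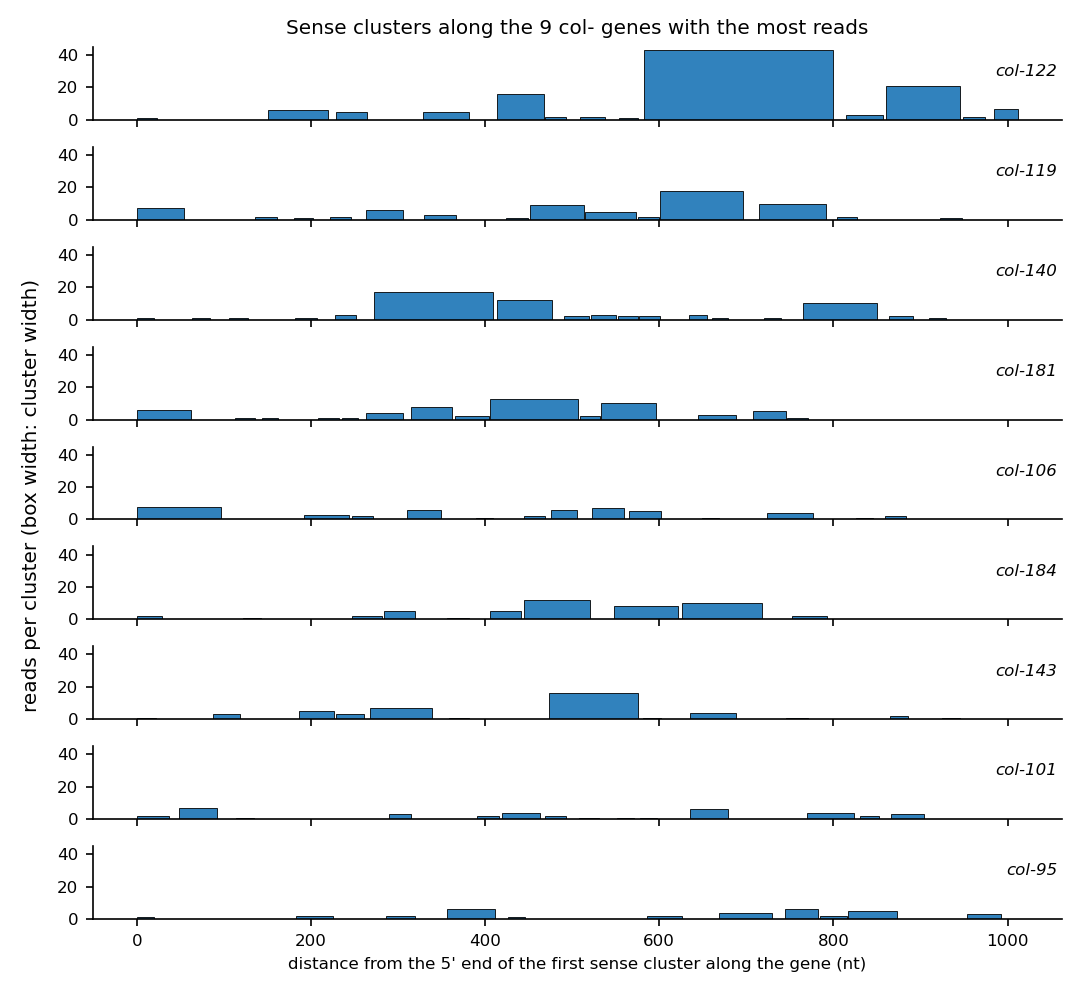
Sense clusters along the 9 col- genes with the most reads, drawn from the 5′ end of each gene's first cluster; box width is the cluster width in nt and box height its number of reads. Clusters are spread along each gene, and the tallest box is the 43-read cluster of col-122.

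Reads were spread along these genes as many different sequences. In the leading 15 the clusters of a gene numbered 7 to 17 and lay within 484 to 1043 nt. They covered from 19.5% of that span in col-42 to 73.5% in col-181, with 69.8% in col-122. Reads per distinct sequence ran from 1 in col-8 to 1.12 in col-140. Over all members the value was 1.06, against 1.15 over all clusters sense to exons. By annotation, 648 of the 676 sense reads (95.9%, 94.1 to 97.2) lay in clusters within coding sequence that touched no UTR, against 90.4% (90.2 to 90.6) over all sense exon clusters. Clusters touching a 3′ UTR held 15 reads and those touching a 5′ UTR held 13. No sense read lay in an intron of a member alone, and 4 antisense reads did.

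Sense clusters of the members were wider than those over all exons. The median width was 25 nt against 22 nt over all sense exon clusters. It was 71 nt on yolk protein genes, 37 nt on ribosomal protein genes and 25 nt on the cuticle collagens named for body shape. On the lists of muscle, moulting, cuticlin, collagen modification and basement membrane genes it was 22 to 23 nt. Overlapping reads merge into wider clusters, and the part of read number in these widths was not tested. Clusters of 18 to 26 nt, the range of read lengths in the list's name, made up 57.8% (50.9 to 64.4) against 85.7% (85.3 to 86.0). Clusters of 1 read made up 45.9% (39.1 to 52.7) against 76.3%. Width stands for read length where a cluster holds 1 distinct sequence. In those 102 sense clusters the share ran from 7.84% at 18 nt and at 24 nt to 18.6% (11.6 to 27.5) at 19 nt. At 22 nt it was 9.80% (4.80 to 17.3) against 11.2% over all genes, and at 26 nt 8.82% (4.11 to 16.1) against 8.13%. Over all genes the shares were 14.5% at 18 nt and 13.6% at 19 nt. The intervals of all 9 widths on the members overlapped, and a favoured length was not tested.

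Of the 12 genes of the stage-linked list that were found, 3 had a sense read (25%), against 28.3% of all members and 35.5% of all protein-coding genes. col-19, an adult collagen activated by the transcription factor LIN-29 and used as a marker of the adult epidermis, had 20 sense reads (12.2 to 30.9) in 9 clusters over exons 1 and 2, at X 421712 to 422544 on the plus strand. Its largest cluster held 7 reads. col-17, a collagen of larval stages, had 2 reads (0.242 to 7.22) in 2 clusters of exon 1. col-99, which encodes a transmembrane collagen and not a cuticle protein, had 1 read.

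The other 9 genes of that list that were found had 0 reads on both strands. They were col-2, used in the dauer larva, the adult collagen col-7, and col-10, col-12, col-13, col-14, col-34, col-36 and col-40. The list's col-6 was not in the gene table under that symbol. col-12 and col-13 are near-identical neighbours, and the list may leave out reads with equal placements. The part of this in their counts was not tested.

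By the order of protein-coding genes in WBcel235, 26 pairs of members were direct neighbours. Both had sense reads in 3 pairs, 1 of the 2 in 13 and neither in 10, where 28.3% of all members had sense reads. In 8 of the 13 the difference was 1 read, and a difference over 3 reads was found in 7 of the 26 pairs. The pairs with the widest gaps, named after their values were seen, were col-183 and col-184 with 0 and 48 reads, and col-95 and col-96 with 34 and 1. On chromosome II, col-17, col-20 and col-73 follow each other and had 2, 21 and 0. By chromosome, sense reads numbered 295 on IV (11 of 42 members with reads), 144 on X (7 of 28), 129 on V (8 of 31), 58 on III (5 of 12), 45 on II (11 of 24) and 5 on I (3 of 22).

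Antisense reads lay on 9 members, and none on those with the most sense reads. These 9 genes were 5.77% (2.67 to 10.7) of the coding members, against 16.4% of all protein-coding genes. Of the 9, 7 had no sense read and held 12 antisense reads, while col-71 and col-38, with reads on both strands, held 18. At least 3 antisense reads were found on 4 members (2.56%, 0.703 to 6.43), against 3.71% of all protein-coding genes. The antisense share of exonic reads was 4.25% (2.89 to 6.01) on the members and 14% (13.8 to 14.2) over all exon clusters. The gap was smaller in narrow clusters. In clusters of 18 to 26 nt alone the shares were 14.8% (9.95 to 20.7) and 18.5% (18.1 to 18.9), which overlap. With each of these narrow clusters counted once they were 13.7% (8.57 to 20.4) and 16.1% (15.8 to 16.5), which also overlap. With each cluster of any width counted once they were 8.79% (5.52 to 13.1) and 14.9% (14.6 to 15.3). These comparisons were chosen after seeing the data. By reads in clusters of any width the share was 1.28% (0.978 to 1.64) on ribosomal protein genes and 0.368% (0.0446 to 1.32) on muscle genes.

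**Figure D3:**
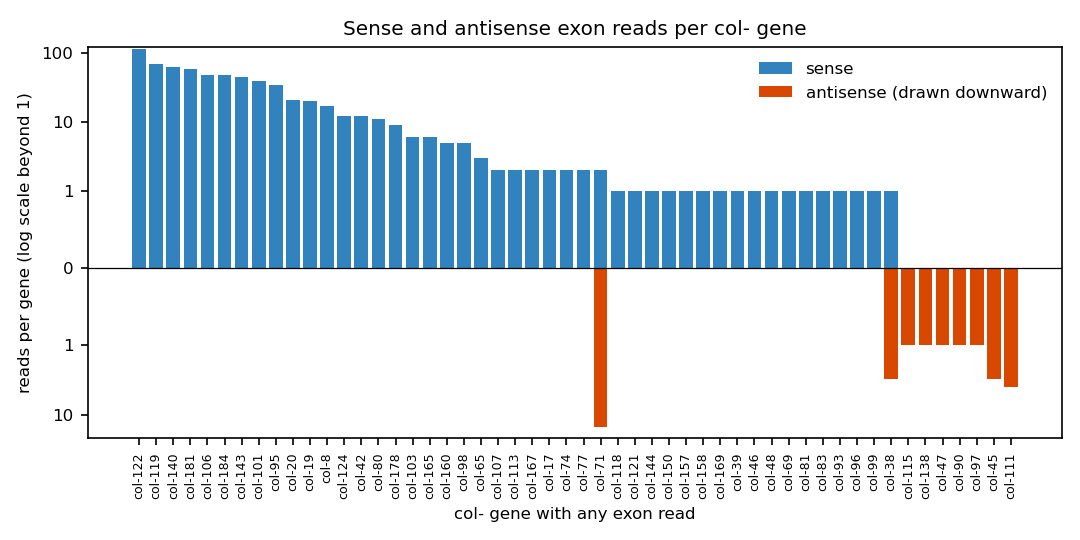
Sense reads (upward) and antisense reads (downward) for the 52 col- genes with any exon read, on an axis that is linear up to 1 and logarithmic beyond. The 15 genes with at least 10 sense reads have no antisense read, and col-71 carries 15 of the 30 antisense reads.

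The leading 15 genes had no antisense read beside 611 sense reads, which allows an antisense share of up to 0.491% by the one-sided limit of 3 reads, or 0.602% by the two-sided exact interval. The genes were then grouped by sense reads, a grouping chosen after these values were seen. Of 1405 other protein-coding genes with at least 10 sense reads, 58.1% (55.5 to 60.7) had an antisense read, against 0 of 15 members (0 to 21.8). Among the 1370 of those genes with at most 120 sense reads, just above the highest member, the share was 57.9% (55.2 to 60.5). With 1 to 9 sense reads it was 27.8% (26.7 to 29.0) in other genes and 2 of 30, or 6.67% (0.818 to 22.1), in members. With no sense read the intervals overlapped, at 6.83% (6.39 to 7.28) in other genes and 7 of 114, or 6.14% (2.50 to 12.2), in members. Genes with at least 10 sense reads and no antisense read were not particular to the members. Among the other collagens, sqt-3, dpy-14, dpy-17, let-2 and emb-9 were such genes. Whatever their sense reads, 1 of 14 muscle genes (7.14%) and 38 of 78 ribosomal protein genes (48.7%) had an antisense read. Over all protein-coding genes it was 16.4%. Gene length was not matched here, and its part in these shares was not tested.

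col-71 (Y49F6B.10, chromosome II) stood at the head of the antisense genes with 15 reads (8.40 to 24.7) of 12 distinct sequences in 8 clusters. Antisense reads were 88.2% (63.6 to 98.5) of its exonic reads, and 50% (31.3 to 68.7) of the antisense reads of all members. They lay on the plus strand from 3500184 to 3502374. The clusters followed the gene over exons 3, 2 and 1. In exon 3 the cluster at 3500533 to 3500554 held 4 reads, that at 3500390 to 3500419 held 3, and those at 3500184 to 3500208 and 3500757 to 3500778 held 2 each. Exon 2 (3501583 to 3501602) and exon 1 (3502354 to 3502374) held 1 read each. Clusters 22 nt wide held 6 of the 15 reads, but each had 2 distinct sequences, so the reads in them may be shorter. The 2 sense reads of col-71 were both 26 nt wide, in exon 3.

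The other antisense reads were few. col-111 (F29B9.9) had 4 (1.09 to 10.2) in clusters of 18 to 20 nt in exons 2 and 3, and no sense read. col-38 (F54C9.4) had 3 (0.619 to 8.77), with 1 sense read. col-45 (F53G12.7) had 3, all in clusters of 22 or 23 nt, and no sense read. col-47, col-90, col-97, col-115 and col-138 had 1 each. The read antisense to col-90 also lay in the 3′ UTR of let-754 in sense, so its gene is uncertain. Over all members 6 of 21 antisense clusters (28.6%, 11.3 to 52.2) were 22 nt wide, against 28.9% (27.7 to 30.0) over all antisense exon clusters. None was 26 nt wide, against 152 of 6156 over all genes. Without col-71 the antisense share of the members was 2.18% (1.22 to 3.57).

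Sense clusters of 1 distinct sequence on col- genes had low uniqueness values more often than those over all exons. The deposited list gives each cluster a value named max_uniq, which no source used here defines. In clusters of 1 distinct sequence without edits it never exceeded 2 times the width, and it equalled that value in 94.2% (93.9 to 94.4) of the 27010 such clusters sense to exons. It is read here as a measure of how far the next best placement lies, so that a value below 2 times the width marks a sequence with a rival placement. Among the 96 such clusters of the members, 24 lay below it, or 25% (16.7 to 34.9). Outside the members the share was 5.78% (5.50 to 6.06). Counted by reads in all sense clusters, the gap was smaller. Values of at most 10 covered 61 of 676 sense reads on the members and 4926 of 70747 over all sense exon clusters.

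All 24 clusters of the members below 2 times the width had a value between 2 and 8. They came from 18 of the 40 members that had such clusters. The matching count over all protein-coding genes was not made, so these 18 have no background. The part of the number of clusters per gene in this count was not tested. By clusters, the share below 2 times the width was 23.2% (13 to 36.4) in the leading 15 genes. It was 27.5% (14.6 to 43.9) in the others, and the intervals overlap. col-143 had 4 of 5 such clusters below 2 times the width, col-101 2 of 3, and col-98 2 of 5. col-8, col-19 and col-184 had no sense cluster with a value under 26. The median over the 12 clusters of col-143 was 14, the lowest of the leading 15 genes. It was 38 over all sense clusters of the members and 42 over all sense exon clusters. These medians include clusters of several sequences, for which the reading above was not set out. The part of cluster make-up in them was not tested.

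**Figure D4:**
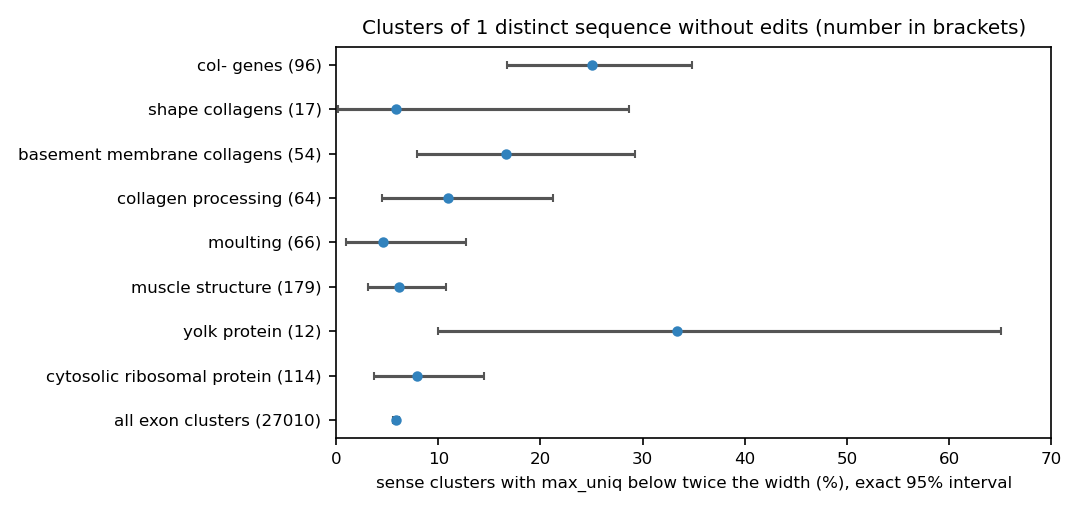
Share of sense clusters of 1 distinct sequence without edits whose max_uniq lies below 2 times the cluster width, by gene list, with exact 95% intervals and the number of clusters in brackets. The col- genes lie at 25%, all exon clusters at 5.85%, and the yolk protein genes, with 12 clusters, at 33.3% with a wide interval.

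Other lists gave this value a scale. Yolk protein genes lay at 33.3% (9.92 to 65.1) in 12 clusters. The cuticle collagens named for body shape lay at 5.88% (0.149 to 28.7), with 1 of 17 clusters. Basement membrane collagens lay at 16.7% (7.92 to 29.3), ribosomal protein genes at 7.89% (3.67 to 14.5) and muscle genes at 6.15% (3.11 to 10.7).

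Of the 21 cuticle collagens named for body shape that were found, 6 had sense reads (28.6%, near the 28.3% of the col- genes and below the 35.5% of all protein-coding genes), 60 reads in all. They were led by sqt-3 with 21 (13 to 32.1), dpy-14 with 18 and dpy-17 with 16, while dpy-2 and dpy-10 had 2 and dpy-3 had 1. Their antisense reads were 2 on rol-1 and 1 on dpy-13. Cuticlins, the cross-linked proteins of the cuticle outside the collagens, had 5 sense reads, 3 of them on cut-2. The 5 reads lay in 3 of 6 genes (50%, against 35.5% of all protein-coding genes), too few to compare.

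Of 17 genes for collagen modification 12 had sense reads (70.6%, against 35.5% of all protein-coding genes), 180 in all. pdi-2, which encodes a subunit of prolyl 4-hydroxylase, had 59 (44.9 to 76.1), and the protein disulfide isomerase genes pdi-3 and pdi-1 had 46 and 25. The catalytic subunit genes dpy-18 and phy-2 had 2 each. The furin-type protease gene bli-4 had 16, and the procollagen protease gene dpy-31 had 4 in sense and 3 in antisense.

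The collagens of basement membranes, laid down on the inner side of tissues, had reads in all 3 genes (100%, against 35.5% of all protein-coding genes). let-2, which encodes a type IV collagen chain, had 111 (91.3 to 134), emb-9, which encodes its partner chain, 47 (34.5 to 62.5), and cle-1 had 2. Of 16 moulting genes 11 had sense reads (68.8%, against 35.5% of all protein-coding genes), 80 in all, led by the lipoprotein receptor gene lrp-1 with 18, the fibrillin-related fbn-1 with 16 and the protease inhibitor gene mlt-11 with 15. Antisense reads on this list numbered 13 over 7 genes (43.8%, against 16.4%), with 4 on mlt-8. For lin-29, the regulator of col-19, 0 sense reads and 1 antisense read were found.

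For comparison, 77 of 78 cytosolic ribosomal protein genes had sense reads (98.7%, against 35.5% of all protein-coding genes). They held 4718 reads in all, a median of 55 per gene, led by rpl-3 with 181, rpl-5 with 156 and rpl-4 with 143. The median over the 159 col- genes was 0, as it was over all protein-coding genes, and among genes with any sense read the medians were 2 and 3 reads.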

How the data were processed

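Clusters of overlapping reads were deposited as 1 list, taken as the monophosphate library since its name shortens that title alone and each line reports 1 supporting library. The submitters' processing notes name Bowtie2 2.1.0, and no other step is given. Read counts per cluster are raw counts as deposited, without normalization. The deposited list also has a column with counts of conversion events and a column of entropy values, a score with no unit; neither was used. The other attributes the authors deposited are described where used. The list's name states a selection of 18 to 26 nt, and the library's full depth is unknown.

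Exon names were matched exactly, allowing isoform suffixes, with Python 3.11.15, pandas 2.3.3 and SciPy 1.17.1. A cluster naming several genes counted for each. Counting was tested on simulated data, where 200 of 200 genes were recovered. Each simulated cluster named a single gene on a single strand, in the format that the counting reads. The check therefore did not cover clusters naming several genes or the step from symbols to sequence names. No molecular identifiers are named, so intervals and limits cover counting error only. Coding lengths and sequences were not used here. Of the listed genes, ram-4, tni-2 and col-6 were not in the table under those symbols. Members, lists and rules were chosen with earlier results of these data known. Named were the 15 members with most sense reads, those with at least 3 antisense reads, a list of stage-linked genes, and the 3 leading genes of each other list; others named were chosen after their values were seen.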

Additional observations from a re-analysis of the deposited data

How the results depend on the processing

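Each of 6 results was recomputed under 9 alternatives. Of 54 values, 45 stayed within the counting interval of the reported value or, for counts of genes, within 1.5 times of it. Part of these 45 could not move. Dropping the 3 pseudogenes, which had no read, left all 6 results as reported. Dropping clusters with non-coding or transposon annotation on the same strand also left them as reported. Counting each cluster once could not change counts of genes. Restricting to clusters of 18 to 26 nt left 156 sense reads, an antisense share of 14.8% and 59.6% of sense reads on the 10 leading genes; that restriction removes wide clusters, where sense reads lie. Counting each cluster once gave 218, 8.79% and 58.3% for the same results. Without the leading gene of each direction there were 562 sense and 15 antisense reads, with an antisense share of 2.60%. Letting any name that starts with a member's sequence name count, which also takes in other genes, gave 716 sense reads. Reads per kb of coding sequence were not run, since coding lengths were not used here. No paired analysis was possible because there was 1 library. Most members had too few reads to be ranked.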
